A study of Homo sapiens with 12 samples.

Results

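The levels of 10 genes of histone-based gene silencing were followed in 3 human cancer cell lines given a combination treatment or 5-Aza-CdR alone. They were AOF2 (the older symbol of KDM1A, which encodes LSD1), CBX1, CBX3, CBX5, EZH2, SUZ12, EED, SETDB1, SUV39H1 and EHMT2, taken by symbol, and all 10 were found among the 20545 gene symbols of the deposited table. HCT116 is an established line from a colon carcinoma, HL60 one from a promyelocytic leukaemia and SNU398 one from a hepatocellular carcinoma. 5-Aza-CdR (decitabine) is a cytosine analogue that traps DNA methyltransferases on DNA and so lowers DNA methylation as cells divide. The 6 groups of 2 Illumina bead arrays each were HCT116, HL60 and SNU398 cells under Combination and the same lines under 5-Aza-CdR, 12 arrays in all. The labels name neither the other component of the combination nor any dose or time, and no untreated cells were analysed here, so each treatment difference is the combination minus 5-Aza-CdR alone. Nothing in the labels says that the replicates were grown separately, so a p-value here reflects the spread of these arrays alone, and that spread may be technical.

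Silent chromatin is marked on histone H3 by methylation of lysine 9 or lysine 27. SUV39H1, SETDB1 and EHMT2 (G9a) methylate lysine 9, and the HP1 proteins CBX5, CBX1 and CBX3 bind the methylated lysine and compact the region. EZH2, SUZ12 and EED form the core of Polycomb repressive complex 2 (PRC2), which methylates lysine 27. LSD1 is a flavin-dependent demethylase that removes methyl groups from lysine 4 of H3, a mark of active promoters, within the CoREST and NuRD corepressor complexes. Loss of SETDB1 or of LSD1 is known to raise transcripts of endogenous retroviruses in several cell systems, and DNA methylation and lysine 9 methylation often mark the same silent repeats.

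The arrays of HCT116 replicate 2 stood apart: they listed exactly 0 for 4938 genes, against 9 on the replicate 1 arrays, and zeros were taken as not measured. Array medians over values above 0 ran from 8.04 to 8.62 on the log2 scale, but these cover unlike sets of genes. Over the 12349 genes above 0 on all arrays, the medians were 8.04 and 8.05 on the HCT116 replicate 2 arrays. They were 9.10 and 9.08 on those of HCT116 replicate 1, and 9.33 to 9.40 in HL60 and SNU398. Within a line, arrays of the same replicate number deviated from their group means together (Pearson r across genes was 0.907 for HCT116, 0.883 for HL60 and 0.841 for SNU398), so a combination array was also set against the 5-Aza-CdR array of its own number, and such a difference is called a pair difference. A fit to the pairs of 1 line alone is called the single-line fit, and it was adopted with its calls already known from earlier work, which its adjusted p do not allow for. The pair differences of replicates 1 and 2 correlated across genes with an r of 0.179 for HCT116, 0.0832 for HL60 and 0.444 for SNU398. Granulocyte MPO, at 14.94 to 15.87 on HL60 arrays against 7.47 to 7.70 on SNU398 arrays, set HL60 apart from SNU398. MPO was not measured in HCT116. Of the same list, ELANE, PRTN3, AZU1, CTSG, SPI1, CEBPE, LYZ and CD33 also lay higher in HL60 than in SNU398 without overlap. PTPRC did not, at 7.46 to 8.24 in HL60 and 7.46 to 7.54 in SNU398. The lowest HL60 value of CD33, 8.91, lay below its highest HCT116 value, 9.07. Among colon markers, the keratin gene KRT19, at 11.24 to 13.14 on HCT116 arrays and at most 7.76 elsewhere, set HCT116 apart, whereas CDX2, an intestinal transcription factor, was lower in HCT116 (8.48 to 8.60) than in SNU398 (9.16 to 9.54), and the HCT116 range of the epithelial gene EPCAM (8.16 to 12.16) held that of SNU398 (10.90 to 11.47). The hepatocyte transcripts that were measured did not mark SNU398: albumin (ALB) lay at 8.38 to 8.99 in HL60 and at 8.17 to 8.27 in SNU398. Of the same list, AFP, APOB, TTR and HNF4A were not found by symbol, and FGB was not measured in SNU398.

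The promoters shown are those of AOF2, the member with the largest fall in SNU398, and SUZ12, higher in every pair as deposited. They were chosen after their values were seen. No fit called SUZ12, and CBX1, which was called in SNU398, is not shown. 5-Aza-CdR lowers cytosine methylation at CpG dinucleotides, so these are marked. Each difference here is against 5-Aza-CdR alone, however, and no link between CpG counts and the differences was tested. Each sequence is the 250 bases before the annotated start of the gene in RefSeq, build GRCh38.p14, on the strand of the gene, with every CpG in capitals. The AOF2 window is chr1:23019218-23019467 (+ strand), just before the gene at 23019468 to 23083689, and the SUZ12 window is chr17:31936757-31937006 (+ strand), just before the gene at 31937007 to 32001038.
AOF2: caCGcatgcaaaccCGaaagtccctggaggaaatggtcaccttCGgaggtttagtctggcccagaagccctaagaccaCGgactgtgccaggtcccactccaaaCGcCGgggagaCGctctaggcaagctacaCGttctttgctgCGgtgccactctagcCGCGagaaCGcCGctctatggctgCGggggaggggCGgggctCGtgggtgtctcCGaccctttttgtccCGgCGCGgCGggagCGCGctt
SUZ12: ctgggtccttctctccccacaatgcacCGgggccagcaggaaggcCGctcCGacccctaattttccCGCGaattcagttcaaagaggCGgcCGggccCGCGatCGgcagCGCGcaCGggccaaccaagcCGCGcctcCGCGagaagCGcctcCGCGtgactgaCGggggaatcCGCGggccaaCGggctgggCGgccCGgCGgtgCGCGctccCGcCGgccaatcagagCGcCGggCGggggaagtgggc
The AOF2 window held 23 CpG and the SUZ12 window 34, against a median of 11 over 35116 promoters of the same length. Fewer CpG were found in 74.2% of promoters than in AOF2 and in 93.2% than in SUZ12. The promoters compared were not filtered by gene type, which limits what these shares say about the windows shown. All 10 genes matched the RefSeq table, and their counts ran from 5 CpG for SUV39H1 to 38 for EZH2. The letters TTTCCCGC or TTTGGCGC (either strand), which resemble the motif of the E2F cell cycle factors, occurred in 1.93% of all promoters and in 1 of the 10, that of SUZ12. The letters GGGCGG (either strand) occurred in 42.6% of promoters and in 6 of the 10 genes, and CCAAT (either strand) in 32.01% and in 4 of the 10. These counts describe letters in a window and were set against no methylation measurement.

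AOF2, the gene of LSD1, was the member with the largest fall in SNU398 cells and did not pass in the other lines. Its log2 level on the SNU398 arrays was 11.47 and 10.87 with the combination (replicates 1 and 2, the order kept throughout), against 11.96 and 11.31 with 5-Aza-CdR alone. The groups overlapped because AOF2 was lower in replicate 2 than in replicate 1 under both treatments, yet within each replicate the combination array was the lower one. The pair differences were −0.49 and −0.44, and their mean of −0.47 ± 0.08 (moderated SE, n = 2 pairs) is a 1.38-fold lower level. Every SE given here is limma's moderated SE, which draws on the spread of other genes and is not that of the 2 pairs alone. In the single-line fit of SNU398 it was 0.081 for AOF2 and 0.090 for CBX5, whose pair differences were −0.39 and −0.08. Such an SE, and its p, thus say little about how closely the pairs of a gene agree. In the single-line limma fit AOF2 fell with an adjusted p of 0.0042 and a 95% interval from −0.64 to −0.29. Of all genes tested in SNU398, 0.237% had a lower mean difference. The unpaired limma fit of all 12 arrays gave AOF2 the same difference with an SE of 0.43 (adjusted p = 1.00), and the limma fit over the 6 pairs gave an SE of 0.13 (adjusted p = 1.00).

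In HCT116 the AOF2 level was 11.35 and 11.06 with the combination, against 11.33 and 10.86 with 5-Aza-CdR alone. In HL60 it was 11.01 and 11.96 with the combination, against 11.18 and 11.86 with 5-Aza-CdR alone. The groups overlapped in both lines and the HL60 pairs moved in opposite directions. The mean pair difference was 0.11 ± 0.22 in HCT116 (adjusted p = 0.92, limma, single-line fit) and −0.04 ± 0.19 in HL60 (adjusted p = 0.99). Whether the AOF2 response differed between the 3 lines was tested with a moderated F test, which gave an adjusted p of 1.00 in the unpaired limma fit and of 0.89 over the 6 pairs. A difference in response between the lines was therefore not established.

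**Figure D1:**
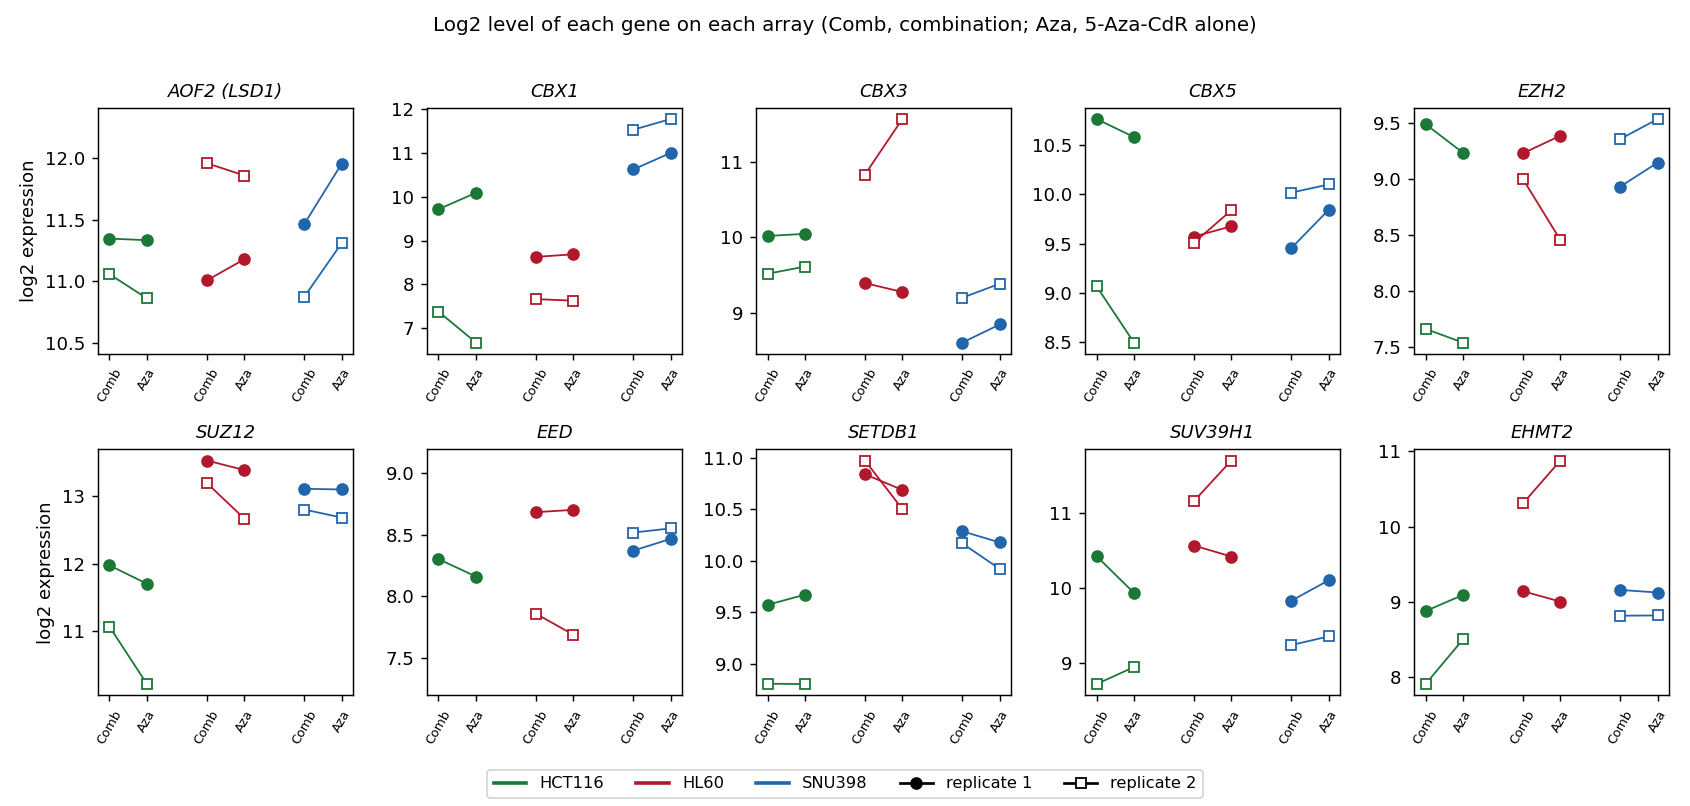
Log2 level (vertical axis, own range per gene) of each of the 10 genes on each array, with the combination (Comb) left of 5-Aza-CdR alone (Aza) in each line, and lines joining arrays of the same replicate number. In SNU398 both AOF2 lines run lower at the combination end, while the distance between replicates is often larger than that between treatments, as for CBX1 in HCT116.

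The HP1 genes were all lower with the combination in both SNU398 pairs, and 1 of the 3, CBX1, passed the threshold there. CBX1, which encodes HP1 beta, stood on the SNU398 arrays at 10.63 and 11.53 with the combination, against 11.01 and 11.78 with 5-Aza-CdR alone. The groups overlapped, and the pair differences were −0.38 and −0.25. Their mean of −0.31 ± 0.08 (SE, n = 2 pairs) passed at the edge of the threshold in the single-line fit (limma, adjusted p = 0.04996). CBX1 passed with the arrays centred (adjusted p = 0.040) or quantile normalized (0.030), and the call was lost with an intensity trend and robust variance (0.14), where AOF2 still passed (0.042). The unpaired fit gave CBX1 an SE of 1.16 (adjusted p = 1.00).

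CBX3, the HP1 gamma gene, was at 8.61 and 9.21 on the SNU398 combination arrays, against 8.85 and 9.39 with 5-Aza-CdR alone (pair differences −0.24 and −0.19, adjusted p = 0.19, limma). CBX5, the HP1 alpha gene, was at 9.45 and 10.02 there with the combination, against 9.84 and 10.10 with 5-Aza-CdR alone (pair differences −0.39 and −0.08, adjusted p = 0.19, limma). Neither gene passed, and the groups of both overlapped.

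In HL60 and HCT116 none of the HP1 genes passed. CBX5 in HL60 was at 9.57 and 9.51 with the combination, against 9.68 and 9.84 with 5-Aza-CdR alone, so that both combination arrays lay below both 5-Aza-CdR arrays. Its mean pair difference was −0.22 ± 0.18 (adjusted p = 0.89, limma, single-line fit). In HCT116 the CBX5 pair differences had the opposite sign, 0.18 and 0.57, at levels of 10.77 and 9.06 with the combination, against 10.58 and 8.49 with 5-Aza-CdR alone (adjusted p = 0.66). The F test between lines gave CBX5 an adjusted p of 0.89 over the 6 pairs and of 1.00 in the unpaired limma fit, so its signs were not shown to differ.

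CBX3 in HL60 shows how far replicates could part: its level was 9.40 and 10.83 with the combination, against 9.28 and 11.56 with 5-Aza-CdR alone. CBX3 was higher in replicate 2 than in replicate 1 under both treatments, and the pair differences of 0.12 and −0.73 had opposite signs. In HCT116 it lay at 10.02 and 9.52 with the combination, against 10.05 and 9.62 with 5-Aza-CdR alone, with pair differences of −0.03 and −0.10. CBX1 varied most, at 9.72 and 7.38 on the HCT116 combination arrays, against 10.09 and 6.67 with 5-Aza-CdR alone. The replicate 2 values lay far below those of replicate 1, and the pair differences of −0.38 and 0.71 disagreed in sign. The value of 6.67 was near the low end, above only 4.02% of values on its array. The HL60 levels of CBX1 were 8.63 and 7.66 with the combination, against 8.69 and 7.63 with 5-Aza-CdR alone, a mean difference of −0.01 ± 0.18.

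Among the H3 lysine 9 methyltransferases no gene passed in any line, and their signs differed. SETDB1, which is brought to retroviral repeats by TRIM28, was at 10.29 and 10.17 on the SNU398 combination arrays, against 10.18 and 9.92 with 5-Aza-CdR alone. These groups just overlapped, and the pair differences were 0.11 and 0.25 (mean 0.18 ± 0.08, adjusted p = 0.30, limma, single-line fit). In HL60 SETDB1 was at 10.84 and 10.98 with the combination, against 10.69 and 10.50 with 5-Aza-CdR alone, and there the groups did not overlap. The HL60 pair differences were 0.15 and 0.47 (mean 0.31 ± 0.19, adjusted p = 0.89, limma). In HCT116 it was at 9.57 and 8.80 with the combination, against 9.67 and 8.80 with 5-Aza-CdR alone, so it differed by −0.10 in one pair and by 0.00 in the other.

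SUV39H1, the methyltransferase of pericentric heterochromatin, was at 9.83 and 9.24 on the SNU398 combination arrays, against 10.10 and 9.36 with 5-Aza-CdR alone. Both pairs were lower (−0.27 and −0.12), without passing (mean −0.19 ± 0.08, adjusted p = 0.25, limma, single-line fit). In HCT116 its level was 10.42 and 8.73 with the combination, against 9.94 and 8.95 with 5-Aza-CdR alone. In HL60 it was 10.56 and 11.15 with the combination, against 10.42 and 11.69 with 5-Aza-CdR alone. In both of these lines the replicate 1 pair was higher with the combination and the replicate 2 pair lower, and the groups overlapped.

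EHMT2, which forms the main euchromatic lysine 9 methyltransferase with EHMT1, was the member closest to no difference in SNU398. It stood there at 9.16 and 8.82 with the combination, against 9.12 and 8.82 with 5-Aza-CdR alone (mean 0.02 ± 0.08, 95% interval −0.16 to 0.19, limma, single-line fit). In HCT116 EHMT2 was at 8.88 and 7.91 with the combination, against 9.09 and 8.50 with 5-Aza-CdR alone. Both HCT116 pairs were lower, by −0.21 and −0.59, but the groups overlapped and the mean of −0.40 ± 0.22 did not pass (adjusted p = 0.64). In HL60 it was at 9.14 and 10.31 with the combination, against 9.004 and 10.88 with 5-Aza-CdR alone, and the pair differences of 0.14 and −0.57 had opposite signs.

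Of the PRC2 core, SUZ12 was higher with the combination in every pair of every line as deposited, although no test across all genes called it. SUZ12 is the zinc-finger subunit that holds the complex together and is needed for its activity. In HCT116 it was at 11.98 and 11.07 with the combination, against 11.70 and 10.21 with 5-Aza-CdR alone. In HL60 it was at 13.53 and 13.20 with the combination, against 13.39 and 12.67 with 5-Aza-CdR alone. The arrays of the treatments overlapped in both lines, SUZ12 itself being lower in replicate 2 than in replicate 1. In SNU398 it was at 13.11 and 12.80 with the combination, against 13.10 and 12.68 with 5-Aza-CdR alone, and the groups overlapped again.

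In HCT116 the SUZ12 pair differences were 0.27 and 0.85, those of HL60 were 0.14 and 0.53, and those of SNU398 were 0.01 and 0.12. All 6 lay above 0, which held for 3.42% of the 12349 genes measured on every array and for 1 of the 9 members with 6 pairs. With the arrays centred on their medians the smallest of the 6, that of SNU398 replicate 1, turned to −0.0034, and with quantile normalization to −0.0091. SUZ12 averaged 0.32 ± 0.10 over the lines over the 6 pairs (adjusted p = 0.61, limma), and the unpaired fit gave the same average an SE of 0.30 (adjusted p = 1.00). In HCT116 alone the mean of 0.56 ± 0.22 had an adjusted p of 0.49 (limma, single-line fit). Replicate 2 gave the larger SUZ12 difference in each line. Ribosomal protein genes, among the most abundant transcripts of a cell, had median pair differences of 0.65 in replicate 2 and 0.02 in replicate 1 of HL60, and of 0.33 and 0.06 in those of HCT116. In SNU398 these medians were −0.04 in replicate 2 and 0.01 in replicate 1, so they did not move with SUZ12 there. The part of the ribosomal shift in the SUZ12 values of HL60 and HCT116 was not tested. SETDB1 was above 0 in 5 of 6 pairs, with an average of 0.15 ± 0.08 (adjusted p = 0.61, limma, all 6 pairs).

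EZH2, the catalytic subunit, was lower with the combination in both SNU398 pairs, at 8.93 and 9.36, against 9.15 and 9.53 with 5-Aza-CdR alone (mean −0.20 ± 0.08, adjusted p = 0.23, limma, single-line fit). In HCT116 it was at 9.49 and 7.66 with the combination, against 9.23 and 7.54 with 5-Aza-CdR alone. In HL60 it was at 9.23 and 8.999 with the combination, against 9.39 and 8.45 with 5-Aza-CdR alone. HCT116 was higher in both pairs and HL60 mixed, with overlapping groups and no call in either.

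EED, the subunit that reads methylated lysine 27, was below its array's median on 7 of the 10 arrays that measured it. In SNU398 it was at 8.37 and 8.52 with the combination, against 8.47 and 8.55 with 5-Aza-CdR alone (mean −0.07 ± 0.08, adjusted p = 0.77, limma, single-line fit). In HL60 it was at 8.68 and 7.86 with the combination, against 8.70 and 7.69 with 5-Aza-CdR alone. In HCT116 only replicate 1 measured it, at 8.30 with the combination and 8.16 with 5-Aza-CdR alone, and both replicate 2 arrays listed it at 0. EED did not pass in any line where it was tested.

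**Figure D2:**
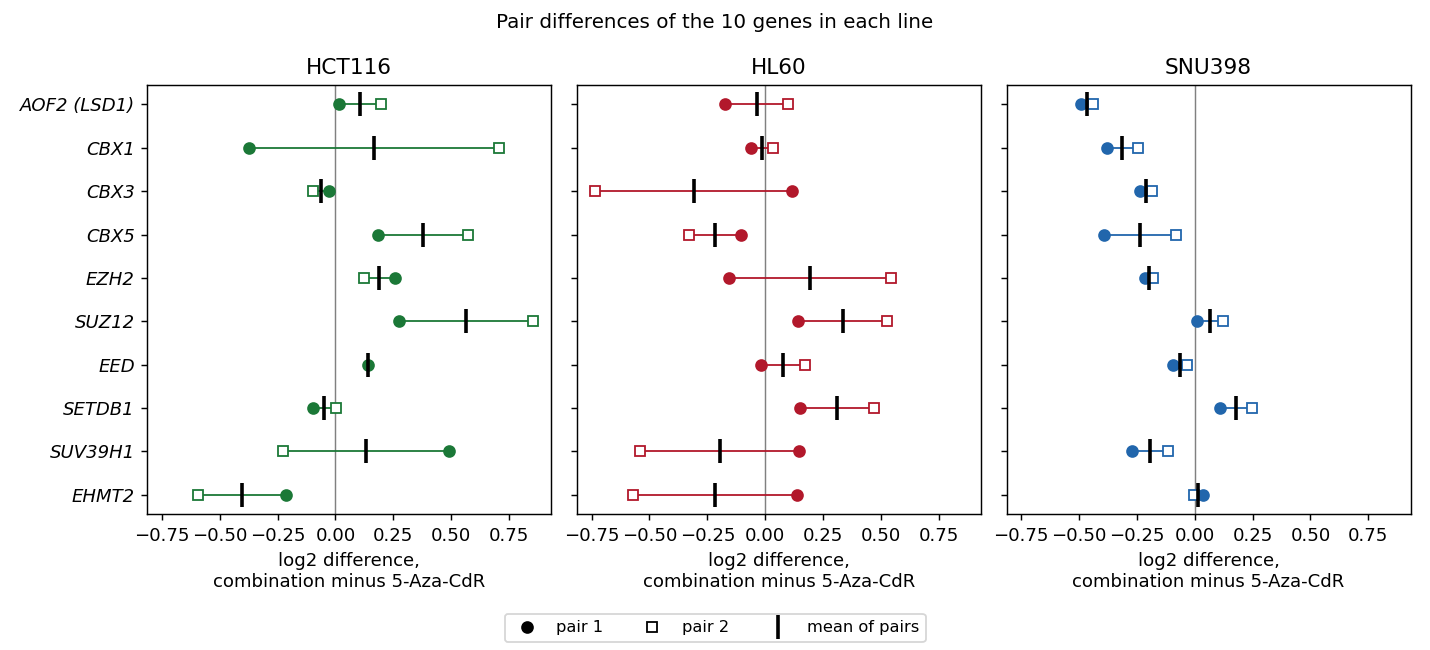
Pair differences of the 10 genes in each line (horizontal axis, log2 combination minus 5-Aza-CdR alone; filled circle, replicate 1; open square, replicate 2; vertical bar, mean of the pairs). SUZ12 lies right of 0 in all 6 pairs, and in SNU398 both AOF2 pairs lie near −0.47.

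As a group, the 10 genes were more often lower than higher with the combination in SNU398. In SNU398, 7 of 10 were below 0 in both pairs and 2 above 0 in both, against 30.7% and 29.6% of all genes. In HL60, 1 of 10 was below and 2 above, against 23.8% and 28.0% of genes. In HCT116, 2 of the 9 with both pairs were below and 4 above, against 26.4% and 30.0%. The members' median mean difference was −0.20 in SNU398, −0.02 in HL60 and 0.13 in HCT116, where all genes had medians of −0.00, 0.02 and 0.03.

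In SNU398 the single-line fit called 3.66% of 19402 genes, 1.23% lower and 2.43% higher, and 2 of the 10 members, AOF2 and CBX1, both lower. At an unadjusted p under 0.05, 6 members were lower (AOF2, CBX1, CBX3, CBX5, EZH2 and SUV39H1), where 7.61% of genes were, and 1 was higher (SETDB1), where 8.69% were. In HCT116 it called 0.202% of 12349 genes (0.0324% lower and 0.17% higher) and none of the 9 members, and all 25 of these calls were lost with quantile normalization and with a trend and robust variance (0 genes each). At an unadjusted p under 0.05, 1 of the 9 was higher there, SUZ12, as were 4.65% of genes, and none was lower, as were 3.72%. In HL60 it called 0 of 19402 genes (0.948% at an unadjusted p under 0.05) and no member. The unpaired limma fit called 0.0% of genes in every line (19, 26 and 32 genes at an unadjusted p under 0.05 in HCT116, HL60 and SNU398), and the fit over the 6 pairs also called none (1231, 1417 and 429). Both of these fits take 1 spread per gene over the 3 lines. The combination arrays lay wholly outside the range of the 5-Aza-CdR arrays for 0 of 10 members in SNU398 (24.7% of genes), for 2 of 10 in HL60 (CBX5 lower and SETDB1 higher, 14.7% of genes) and for 0 of 9 in HCT116 (6.28% of genes).

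**Figure D3:**
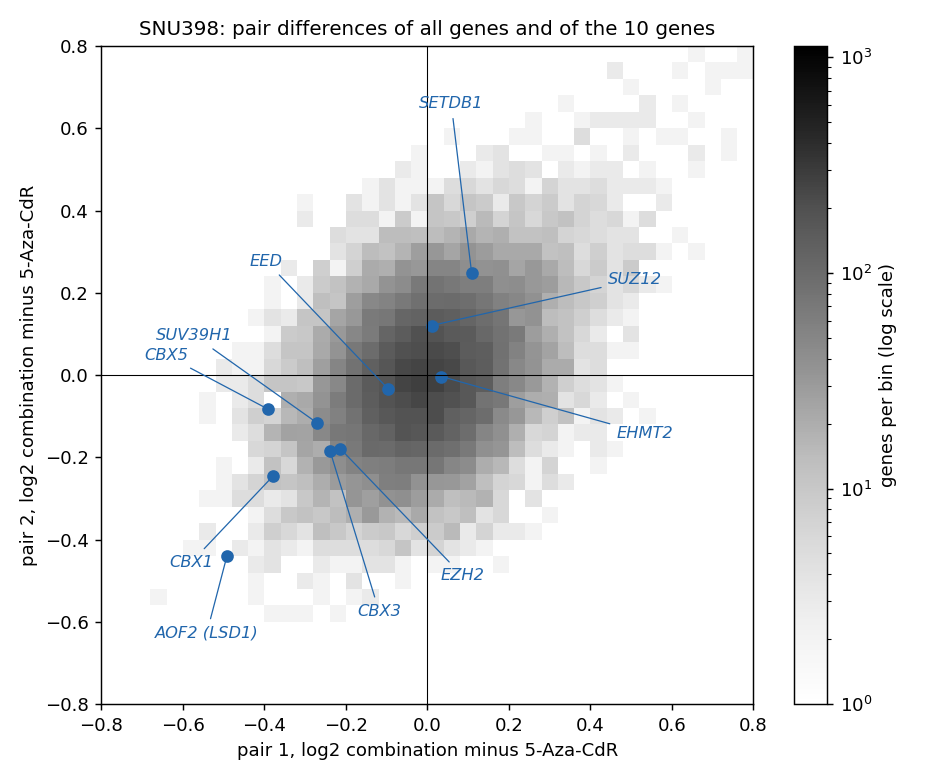
SNU398 pair differences (log2 combination minus 5-Aza-CdR alone) of replicate 1 (horizontal) against replicate 2 (vertical), with grey squares for the number of genes per bin on a log scale and blue points for the 10 genes, drawn for the 19342 of 19402 genes within 0.8 of 0. AOF2 lies near the lower left edge of the cloud, 7 members lie below 0 in both pairs and SETDB1 and SUZ12 above 0 in both.

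Genes of proliferating cells also moved in SNU398. Of 23 measured proliferation genes, 5 fell in the single-line limma fit: TYMS (thymidylate synthase) by 0.43, MCM4 (replicative helicase) by 0.39, RRM2 (ribonucleotide reductase) by 0.38, CCNA2 (cyclin A2) by 0.38 and CCNE2 (cyclin E2) by 0.34. Their median difference was −0.09, and 12 of the 23 were below 0 in both pairs. Under the robust trended variance 0 of the 23 passed, and with centred or quantile normalized arrays 6 did. None was called of 23 in HL60 or of the 18 with both pairs in HCT116, where the medians were 0.11 and 0.09. EZH2 is known to be more abundant in cycling cells, and the part of proliferation in the SNU398 values of the 10 genes was not tested. Of the interferon response genes, 12 of 26 rose in SNU398 in the same fit (10 with a trend and robust variance). In HCT116, 9 of 23 passed as higher, and 0 of 23 did once arrays were quantile normalized, or under the robust trended variance. None of 26 passed in HL60.

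Partners of these silencing factors gave no call in the single-line fit of the values as deposited. In SNU398 and HL60, 0 passed of 13 other lysine 9 methylation enzymes and cofactors and of 8 PRC2 cofactors (limma). The same held for 18 subunits of Polycomb repressive complex 1 and 17 partners of LSD1, a list that includes its paralogue KDM1B. It also held for 9 subunits of the deacetylase complex NuRD and 16 other deacetylases and their corepressors. In HCT116, where fewer of them had both pairs, 0 passed of 10, 7, 16, 14, 8 and 13 in the same order. Over all genes this fit called 3.66% in SNU398, 0.0% in HL60 and 0.202% in HCT116, so the 0 calls say little about the partners. The median differences of these partner groups in SNU398 lay between −0.05 and 0.02. The partners of LSD1 with the smallest p in SNU398 were RCOR3, a CoREST paralogue, at 0.19 ± 0.08 (adjusted p = 0.27), CTBP2, a corepressor, at −0.13 ± 0.08 (adjusted p = 0.48) and ZMYM2 at −0.11 ± 0.08 (adjusted p = 0.58). Closest to the threshold of all partners in SNU398 was SIRT1, a NAD-dependent deacetylase, at −0.30 ± 0.08 with an adjusted p of 0.053. SIRT1 passed with the arrays centred (adjusted p = 0.043) and with quantile normalization (0.035), and not with a trend and robust variance (0.15). HDAC11 stood at 0.30 ± 0.08 (adjusted p = 0.065, and 0.043 with quantile normalization) and HDAC6, a cytoplasmic deacetylase, at 0.28 ± 0.08 (adjusted p = 0.078). MTF2, a Polycomb-like PRC2 subunit, was at −0.23 ± 0.08 (adjusted p = 0.16), and CHD4, the NuRD remodeller, at 0.22 ± 0.08 (adjusted p = 0.17).

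The HCT116 values of partner genes with a low unadjusted p did not pass either. RCOR2, another CoREST paralogue, stood at −0.49 ± 0.22 there (adjusted p = 0.55), CHAF1A, a histone chaperone of replicating chromatin, at −0.52 ± 0.22 (adjusted p = 0.53) and BMI1, a Polycomb ring-finger protein, at 0.45 ± 0.22 (adjusted p = 0.59), in limma with n = 2 pairs. HDAC7 had the smallest p of the partners in HCT116, at 0.59 ± 0.23 (adjusted p = 0.48, limma). SIRT1 stood at 0.50 ± 0.22 in HCT116 (adjusted p = 0.55, limma), against −0.30 in SNU398. TRIM28, which recruits SETDB1, was at −0.13 ± 0.08 in SNU398 (adjusted p = 0.49). In HCT116 its pair differences were −0.23 and 0.98, of opposite sign.

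Between lines, CBX1 had the widest gap of the 10 genes in HL60 against SNU398. It spanned 7.63 to 8.69 on the HL60 arrays and 10.63 to 11.78 on the SNU398 arrays, without overlap. On the HL60 replicate 2 arrays it lay near the low end, above only 14.9% (combination) and 15.6% (5-Aza-CdR alone) of values, which limits the fold below. The mean difference of HL60 minus SNU398 was −3.08 ± 0.51 on the log2 scale (8.48-fold lower, n = 2 pair means against 2), with an adjusted p of 0.060 in limma, so it did not pass. Its adjusted p was 0.00084 with the replicate as a random block, 0.034 over genes averaging log2 9 or more and 0.037 with a trend and robust variance, but 0.066 with the arrays centred and 0.053 with quantile normalization, while the test on pair means called 6.42% of genes. On HCT116 arrays CBX1 ran from 6.67 to 10.09. HCT116 lists another set of genes, so its levels are given side by side and were not tested against the other lines.

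SUV39H1 and SETDB1 were the other members whose HL60 and SNU398 arrays did not overlap, making 3 of 10, where 44.6% of all genes did not overlap. SUV39H1 spanned 10.42 to 11.69 in HL60 and 9.24 to 10.10 in SNU398, a difference of 1.32 ± 0.45 (adjusted p = 0.21, limma). SETDB1 spanned 10.50 to 10.98 in HL60 and 9.92 to 10.29 in SNU398, a difference of 0.61 ± 0.18 (adjusted p = 0.16, limma). HCT116 had SETDB1 lowest as deposited, at 8.80 to 9.67 and below every array of the other lines. HCT116 arrays were also dimmer over shared genes (medians 8.04 to 9.10, against 9.33 to 9.40 elsewhere). The part of this brightness in the HCT116 levels was not tested. By rank within arrays SETDB1 overlapped, exceeding 74.7% of values on HCT116 5-Aza-CdR replicate 1 and 74.3% on SNU398 5-Aza-CdR replicate 2. These ranks run over unlike sets of genes (17281 and 19402 values above 0), so small gaps between them cannot be read. For SUV39H1, HCT116 (8.73 to 10.42) overlapped SNU398.

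For the remaining members HL60 and SNU398 overlapped. AOF2 means were 11.50 in HL60, 11.40 in SNU398 and 11.15 in HCT116 (4 arrays each), and the ranges overlapped. HL60 minus SNU398 was 0.10 ± 0.41 for AOF2 (adjusted p = 0.90, limma), and an SE of this size does not show equal levels. The lower brightness of HCT116 arrays limits the comparison of its AOF2 level. SUZ12 averaged 13.20 in HL60 and 12.93 in SNU398, against 11.24 in HCT116, whose arrays (10.21 to 11.98) lay below all others as deposited. The lower brightness of HCT116 arrays limits this comparison too. By rank SUZ12 exceeded at most 94.2% of values on an HCT116 array and at least 95.3% on those of the other lines. These ranks too run over unlike sets of genes. CBX3 averaged 10.27 in HL60, 9.80 in HCT116 and 9.02 in SNU398. HL60 overlapped both other lines in CBX3, whereas HCT116 and SNU398 did not overlap. CBX5, EZH2 and EED overlapped between neighbouring lines in their order, as did EHMT2, which averaged 9.83 in HL60, 8.98 in SNU398 and 8.60 in HCT116.

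The genes most like a member over the 12 arrays were described by Pearson r of log2 levels among 12349 genes. AOF2 was most like MGC57346, GLI4 and ARHGAP10 (r = 0.87 each). SUV39H1 was most like HS.143408 (0.98), LOC100132011 and MAP2K7 (0.97 each). Between members, SUV39H1 and EHMT2 reached 0.90 and EZH2 and CBX5 0.79. The arrays share line, replicate and the dimmer HCT116 replicate 2 pair, so these values carry no test.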

How the data were processed

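Total RNA of 12 samples was measured on Illumina bead arrays, per the labels' protocols. The values used are the deposited table of log2 expression, 1 value per symbol, read as log2 from their range. The submitters' processing notes name limma. No source used here gives its version or says how background was corrected and arrays normalized. A further table, with 44 columns for 11 arrays whose names match no label, was not used. Zeros were treated as not measured. Depth has no meaning for arrays, and their number limits the precision.

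limma 3.58.1 in R 4.3.3 (lmFit, eBayes) was fitted to the 6 group means of all arrays without a block, on the whole table, with a Benjamini-Hochberg adjusted p under 0.05 as the threshold, two-sided. Alternatives were a replicate block (the fit to the 6 pair differences), the fit to the 2 pairs of 1 line (called the single-line fit, whose variance, on 1 degree of freedom, limma moderates across genes), centring, quantile normalization, a filter at a mean log2 of 9, trend and robust variance, kept zeros and left-out replicates. Label replicate numbers were taken to pair arrays, since deviations of same-numbered arrays correlated above 0.1 in every line. HL60 and SNU398 levels were compared on pair means. The single-line fit with other scalings or variance models was added after seeing the data. Scripts were tested on simulated data. All 10 genes were named, and of each list up to 3 genes with the smallest p. CCNA2, CCNE2, AZU1, CEBPE and PTPRC were added after their values were seen. Likeness was computed for AOF2, EZH2, SUV39H1 and CBX5, and that of EZH2 and CBX5 to other genes is not reported here. Promoters are RefSeq's (GRCh38.p14). The members and lists were chosen with earlier results of these data known. No permutation test was used, since 2 against 2 cannot go below an exact p of 0.333.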

Additional observations from a re-analysis of the deposited data

How the results depend on the processing

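Under the unpaired limma fit no gene was called in any line, and this held with the replicate block over all 6 pairs. The fit to the pairs of 1 line called 25 genes in HCT116 (28 with arrays centred, 0 with quantile normalization and 0 with trend and robust variance) and 710 in SNU398 (738 with arrays centred, 845 with quantile normalization, 303 with trend and robust variance), and none in HL60. The replicate block over all 6 pairs changed no call of a member. The HL60 median of the members moved to −0.053 with arrays centred, also in the fit to the pairs, and to −0.12 over genes averaging log2 9 or more. The HCT116 median was 0.11 in the quantile normalized fit to its pairs. Quantile normalization reversed CBX1 in HCT116 to −0.030 (both in the unpaired fit and in its pairs) and the average of CBX5 over the lines to 0.0025. HL60 minus SNU398 gave 1245 called genes on pair means, 7011 over 8 arrays as independent samples, 3670 with the replicate as a random block and 591 over genes averaging log2 9 or more. Leaving out 1 array, or both arrays of a replicate number, called 0 genes in every line in the unpaired fit, where a lone array is assumed to vary like the others. In HCT116 the members' median then ran from −0.47 to 0.66, and a change of sign was met for AOF2 (−0.13 to 0.34), CBX1 (−1.54 to 1.88), CBX3 (−0.31 to 0.19), CBX5 (−0.67 to 1.43), EZH2 (−0.73 to 1.10), SUZ12 (−0.18 to 1.31), SETDB1 (−0.48 to 0.39), SUV39H1 (−0.72 to 0.98) and EHMT2 (−0.89 to 0.081). In HL60 the members' median then ran from 0.029 to 0.13, and a change of sign was met for AOF2 (−0.51 to 0.44), CBX1 (−0.54 to 0.52), CBX3 (−1.45 to 0.83), EZH2 (−0.27 to 0.66), SUZ12 (−0.025 to 0.69), EED (−0.43 to 0.58), SUV39H1 (−0.83 to 0.44) and EHMT2 (−1.15 to 0.72). In SNU398 the members' median then ran from −0.23 to 0.012, and a change of sign was met for CBX1 (−0.77 to 0.14), CBX3 (−0.51 to 0.083), CBX5 (−0.52 to 0.046), EZH2 (−0.41 to 0.016), SUZ12 (−0.14 to 0.27), EED (−0.14 to 0.0084), SUV39H1 (−0.57 to 0.18) and EHMT2 (−0.16 to 0.19). For HL60 minus SNU398 it was met for AOF2 (−0.31 to 0.51), EZH2 (−0.52 to 0.065) and EED (−0.70 to 0.22), and the count of called genes ran from 0 to 9612. In SNU398 AOF2 stayed below 0 (−0.79 to −0.14) and SETDB1 above 0 (0.049 to 0.31). In HL60 CBX5 stayed below 0 (−0.33 to −0.10) and SETDB1 above 0 (0.15 to 0.47). No fit called a treatment difference of SETDB1 or CBX5, so a kept sign was not particular to AOF2. The causes were not tested. The number of arrays, 2 a group, limits the precision of every difference.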
